A study of Mus musculus with 4 samples.

Results

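The telomere genes described here are Tert, Terf1, Terf2, Terf2ip, Pot1a, Tinf2, Acd, Rtel1, Atrx and Daxx, the 10 genes with these symbols among the 55401 genes of the deposited table. They were selected by name and function. The rule used no measured value, but it was set with earlier results of these data known. All 10 had enough reads in mouse embryonic stem cells (mESCs) to be tested. None of them passed an adjusted p under 0.05 between Haspin-KO and WT mESCs, where 2.5% of all genes tested did. All 10 had a 95% interval inside a 2-fold change in either direction, as did 77.1% of all genes. Tert and Atrx came nearest to the threshold, with both Haspin-KO libraries above both WT libraries in each case.

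Telomeres are the repeat-rich ends of chromosomes, and they shorten at each round of replication unless the reverse transcriptase Tert copies new repeats from the RNA Terc. Shelterin, the protein complex that coats these repeats, hides the ends from the DNA damage response and controls access of telomerase. Pluripotent cells keep telomerase active, and mouse stem cells also pass through a transient state marked by Zscan4, a protein linked to telomere lengthening. Rtel1 is a helicase that unwinds structures at telomeres, and Atrx with its partner Daxx places the histone variant H3.3 in telomeric and other repeat chromatin.

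RNA was sequenced from 2 WT and 2 Haspin-KO libraries of E14, an established mESC line. All cells were grown with serum, Lif and 2i, and no treatment is named for the sequenced cells. The study's methods describe passage on mitomycin C-treated mouse fibroblasts and gelatin-coated dishes for assays. Which of these preceded sequencing is not stated. Haspin, the kinase that phosphorylates histone H3 at threonine 3, was disrupted with CRISPR/Cas9, and the Haspin-KO cells were grown from picked single clones. These clones had been selected with puromycin after transfection, a step not described for WT. The sample labels do not state the clone of each library, nor whether the libraries came from separate cultures, so that p-values measure only the spread between these libraries. Levels between libraries are given as CPM, read counts scaled to the library size, adjusted by edgeR's TMM factors. Haspin stood at 40.1 and 35.7 CPM in the WT libraries and at 10.4 and 14.6 CPM in the Haspin-KO libraries. Haspin was thus 3.03-fold lower in Haspin-KO mESCs (log2 fold change −1.60, SE 0.16, edgeR adjusted p = 0.00154).

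The differences were tested with edgeR's quasi-likelihood test over 15580 genes, with Benjamini-Hochberg adjustment over all of them. Of these genes, 2.5% passed an adjusted p under 0.05 and 0.828% also had a fold change over 2, against 0 of the 10 telomere genes at either threshold. At an unadjusted p under 0.05 there were 2 of the 10, Tert and Atrx, and 20.8% of all genes. DESeq2 called 1 of the 10, Atrx, against 3.63% of all genes it gave an adjusted p. Limma on log2(FPKM + 0.1) called 0 of the 10 and 0 of all 14817 genes it tested, so its count says nothing about the 10. Both Haspin-KO libraries lay above both WT libraries for 2 of the 10 (25.3% of all genes) and below them for 2, Tinf2 and Acd (26.9% of all genes). Groups apart in either direction were thus found for 4 of the 10 and for 52.3% of all genes, and the groups overlapped for the other 6. The median log2 fold change was 0.026 over the 10 and −0.0039 over all genes.

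**Figure D1:**
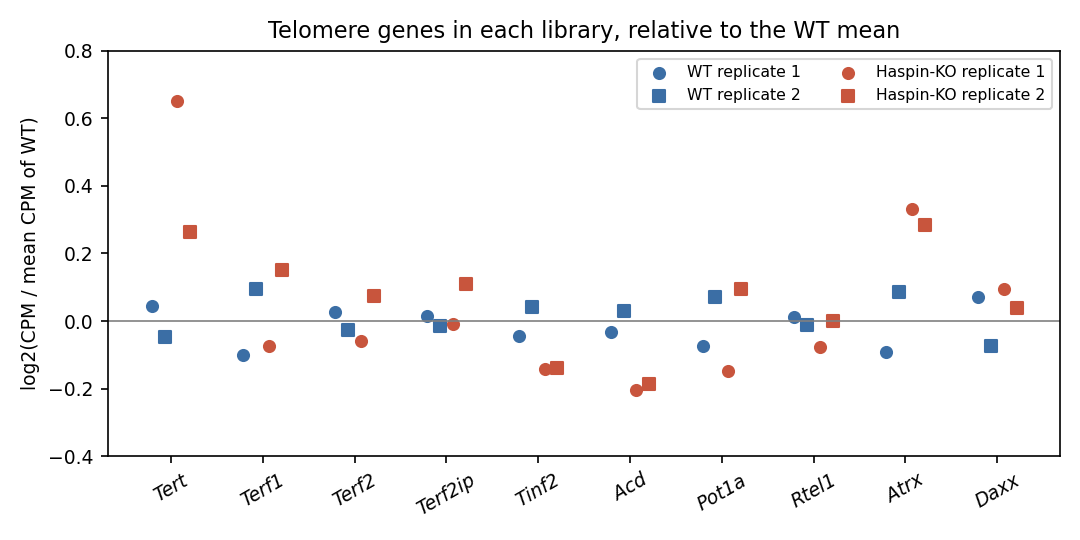
Each point is 1 library, and the vertical axis gives log2 of its CPM over the mean CPM of the 2 WT libraries for the 10 telomere genes. Both Haspin-KO libraries sit above both WT libraries for Tert and Atrx and below them for Tinf2 and Acd.

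Tert, the catalytic subunit of telomerase, lies on the plus strand of chr13:73626911-73649843 (mm10), with 16 exons after merging its transcripts. It was measured at 31.5 and 29.6 CPM in WT and at 48.0 and 36.7 CPM in Haspin-KO. Both Haspin-KO libraries were thus the higher ones, but they stood further apart from each other than the WT libraries did. Haspin-KO replicate 1 was 1.31-fold above replicate 2. The log2 fold change was 0.47 (SE 0.13, 95% interval 0.17 to 0.77), a 1.39-fold difference that did not pass the edgeR test (adjusted p = 0.0904, n = 2 libraries per group). These values rest on 689, 513, 690 and 524 reads in the same order, so that counting alone gives an error of 4.42% at the lowest count. With single libraries left out, the size of the difference moved most with the Haspin-KO libraries. Without Haspin-KO replicate 2 it was 0.65, and without Haspin-KO replicate 1 it was 0.27. Without WT replicate 1 it was 0.51, and without WT replicate 2 it was 0.43. A fit with 1 library in a group takes no spread from that group, so only its size is given.

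Shelterin has 6 kinds of subunit, and Terf1 and Terf2 are those that bind the double-stranded repeats. Terf1 (chr1:15805646-15844052, plus strand) was measured at 115.7 and 132.4 CPM in WT and at 118.0 and 137.8 CPM in Haspin-KO. In both groups replicate 2 was the higher library, and the groups overlapped. The log2 fold change was 0.044 (SE 0.0998, 95% interval −0.18 to 0.27, edgeR adjusted p = 0.841). Terf2 (chr8:107069400-107096547, minus strand), which also protects the ends from fusion, was measured at 78.0 and 75.2 CPM in WT and at 73.5 and 80.6 CPM in Haspin-KO. The 2 WT libraries lay between the 2 Haspin-KO libraries. Terf2 had a log2 fold change of 0.0081 (SE 0.085, edgeR adjusted p = 0.970).

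Terf2ip, known as Rap1, is carried to telomeres by Terf2. The gene (chr8:112011398-112020528, plus strand) was measured at 46.7 and 45.7 CPM in WT and at 45.9 and 49.8 CPM in Haspin-KO. Haspin-KO replicate 1 fell between the WT libraries, and the log2 fold change of 0.050 (SE 0.091) was within the spread (edgeR adjusted p = 0.797).

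Tinf2 and Acd build the bridge of shelterin. Tinf2 holds Terf1 and Terf2 together, and Acd, known as Tpp1, joins them to Pot1a and recruits telomerase. Tinf2 (chr14:55674689-55681820, minus strand) was measured at 60.7 and 64.5 CPM in WT and at 56.7 and 56.8 CPM in Haspin-KO. Acd (chr8:105695860-105701102, minus strand) was measured at 36.1 and 37.7 CPM in WT and at 32.0 and 32.4 CPM in Haspin-KO. For both genes the Haspin-KO libraries were nearly equal and lay under both WT libraries. The log2 fold change was −0.14 for Tinf2 (SE 0.085, 95% interval −0.33 to 0.051) and −0.20 for Acd (SE 0.097, 95% interval −0.41 to 0.022). Neither difference passed the edgeR test (adjusted p = 0.378 for Tinf2 and 0.285 for Acd).

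Both genes share exon sequence with a gene on the opposite strand, and the strand setting of the read counting is not given in the sources used here. Exons of Gmpr2 cover 1540 bases of Tinf2, 31.2% of its exonic length. Exons of Carmil2 cover 1208 bases of Acd, 33.3% of its exonic length. Gmpr2 had a log2 fold change of −0.051 (edgeR adjusted p = 0.883) and Carmil2 of 0.055 (edgeR adjusted p = 0.874), and the part of shared reads in the values of Tinf2 and Acd was not tested. Of Terf2ip, 2.18% of the exonic length is shared with the opposite-strand gene Gm6793.

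Pot1a caps the single-stranded 3′ overhang, a task that mice divide between Pot1a and its paralog Pot1b. Their coding sequences are 78.8% identical over 1917 aligned bases, and the longest run without a difference is 41 bases, so that any longer read of aligned coding sequence holds at least 1 difference. The first 120 coding bases of each, from the GENCODE transcripts of GRCm38, show how the differences are spread, with capitals at the 21 positions where they differ.
Pot1a: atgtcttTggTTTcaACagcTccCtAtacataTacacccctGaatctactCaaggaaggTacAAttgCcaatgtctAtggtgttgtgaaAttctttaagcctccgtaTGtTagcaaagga
Pot1b: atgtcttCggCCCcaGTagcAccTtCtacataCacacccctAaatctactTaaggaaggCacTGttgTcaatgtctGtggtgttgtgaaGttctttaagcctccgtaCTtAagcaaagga

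Pot1a (chr6:25743737-25809246, minus strand) was measured at 74.7 and 82.5 CPM in WT and at 70.9 and 83.9 CPM in Haspin-KO. The 2 WT libraries lay between the 2 Haspin-KO libraries, and the log2 fold change was −0.021 (SE 0.10, edgeR adjusted p = 0.934). The ratio of Pot1a to Pot1b, taken within each library from FPKM (reads scaled to exon length and library total), was 4.79 and 3.99 in WT and 3.995 and 3.84 in Haspin-KO. Pot1a was therefore the more abundant paralog in every library. The log2 ratio differed by −0.16 between the groups (two-sided exact permutation p = 0.667, with 0.333 the smallest that 2 against 2 libraries allow). The ratio of Terf1 to Terf2, whose coding sequences are 61.4% identical over 1244 aligned bases, was 1.48 and 1.76 in WT and 1.60 and 1.71 in Haspin-KO. Its log2 difference was 0.035 (two-sided exact permutation p = 1).

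The makeup of shelterin mRNA was also given as shares of the FPKM summed over the 6 subunits, a sum of 82.4 and 86.7 in WT and of 80.2 and 86.6 in Haspin-KO. This sum left out the paralog Pot1b, which stood at 1.8 to 2.49 FPKM over the 4 libraries. Terf1 held the greatest share in every library, 30.5% and 32.9% in WT and 32.3% and 34.1% in Haspin-KO. Terf2 came next with 18.7% to 20.6% over the 4 libraries, followed by Tinf2 with 13.1% to 15.0%. Terf2ip, Acd and Pot1a each held between 10.2% and 12.1%. The share of Acd was 12.1% and 11.9% in WT and 11.1% and 10.2% in Haspin-KO, and that of Tinf2 was 14.9% and 15.0% against 14.5% and 13.1%. For these 2 subunits both Haspin-KO shares lay below both WT shares, for Terf2ip they lay above (11.7% and 11.5% against 11.4% and 10.6%), and for the others they overlapped. No test was run on shares.

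Rtel1 (chr2:181319739-181356616, plus strand) was measured at 114.5 and 112.6 CPM in WT and at 107.7 and 113.5 CPM in Haspin-KO. The higher Haspin-KO library lay between the WT libraries. Its log2 fold change was −0.038 (SE 0.076, edgeR adjusted p = 0.820), with a 95% interval of −0.21 to 0.13.

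Atrx, a chromatin remodeller of the SWI/SNF family, lies on the minus strand of chrX:105797615-105929403 and has 36 merged exons. It was measured at 421.7 and 476.1 CPM in WT and at 564.5 and 546.2 CPM in Haspin-KO. Both Haspin-KO libraries were above both WT libraries and closer to each other than the WT libraries were. The log2 fold change was 0.31 (SE 0.077, 95% interval 0.13 to 0.48), a 1.24-fold difference that did not pass the edgeR test (adjusted p = 0.0702). After correction for length and GC content, which was added once the data were seen, it was 0.049 (edgeR adjusted p = 0.770). DESeq2 without that correction gave 0.30 and an adjusted p of 0.0311. Without Haspin-KO replicate 2 the edgeR value was 0.33, and over all single libraries left out it ran from 0.22 to 0.40. Atrx had the most reads of the 10 genes, 7799 in its lowest library, where counting gives an error of 1.13%.

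Daxx, the H3.3 chaperone that works with Atrx (chr17:33909414-33915590, plus strand), was measured at 106.4 and 96.1 CPM in WT and at 108.1 and 104.0 CPM in Haspin-KO. The groups overlapped, with WT replicate 1 between the Haspin-KO libraries. The log2 fold change was 0.067 (SE 0.083, 95% interval −0.12 to 0.25, edgeR adjusted p = 0.693).

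The differences of all genes moved with base composition. The correlation of the log2 fold change with GC content was −0.216 over 15568 genes, a description across genes of 1 set of 4 libraries. With all genes split into 5 equal bins by GC content, the median log2 fold change from the lowest bin to the highest was 0.16, 0.059, −0.022, −0.093 and −0.13. The log2 ratio of the 2 WT libraries also correlated with GC content, at 0.159, and that of the 2 Haspin-KO libraries at 0.0411. The source of the trend between the groups was not tested. A technical source cannot be told apart from a change in the cells, and the correction takes out both.

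Atrx, with 39.5% GC, belongs to the lowest bin, and Tert, with 53.6% GC, to the fourth, where the median was below 0. After a correction for length and GC content, chosen after the data were seen, the log2 fold change of Atrx was 0.049 (95% interval −0.092 to 0.19, edgeR adjusted p = 0.770). That of Tert was 0.53 (95% interval 0.24 to 0.82, edgeR adjusted p = 0.0809). Terf1, with 36.5% GC, went from 0.044 to −0.19 (edgeR adjusted p = 0.353), and Pot1a, with 42.2% GC, from −0.021 to −0.17 (edgeR adjusted p = 0.424). In the highest bin, Daxx went from 0.067 to 0.20 (edgeR adjusted p = 0.241) and Acd from −0.20 to −0.075 (edgeR adjusted p = 0.770). Tinf2, near the middle with 48.0% GC, went from −0.14 to −0.15. None of the 10 was called after the correction, against 1.6% of all genes.

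**Figure D2:**
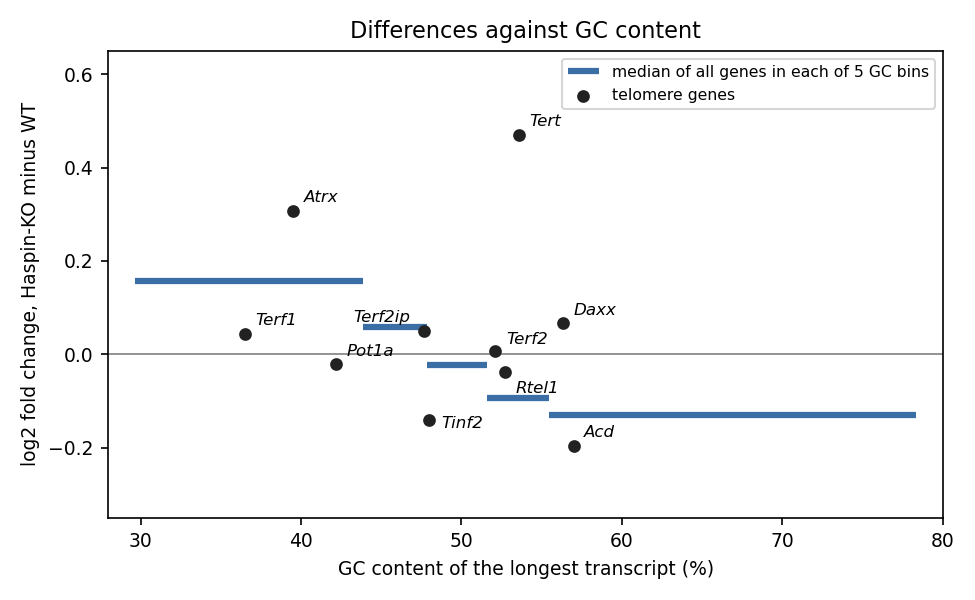
The log2 fold change of Haspin-KO minus WT is plotted against the GC content of the longest transcript, with the 10 telomere genes as points and the median of all genes in each of 5 GC bins as a bar. The bars fall from 0.16 to −0.13, with Atrx at 0.31 above the lowest bin and Tert at 0.47 above the fourth.

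**Figure D3:**
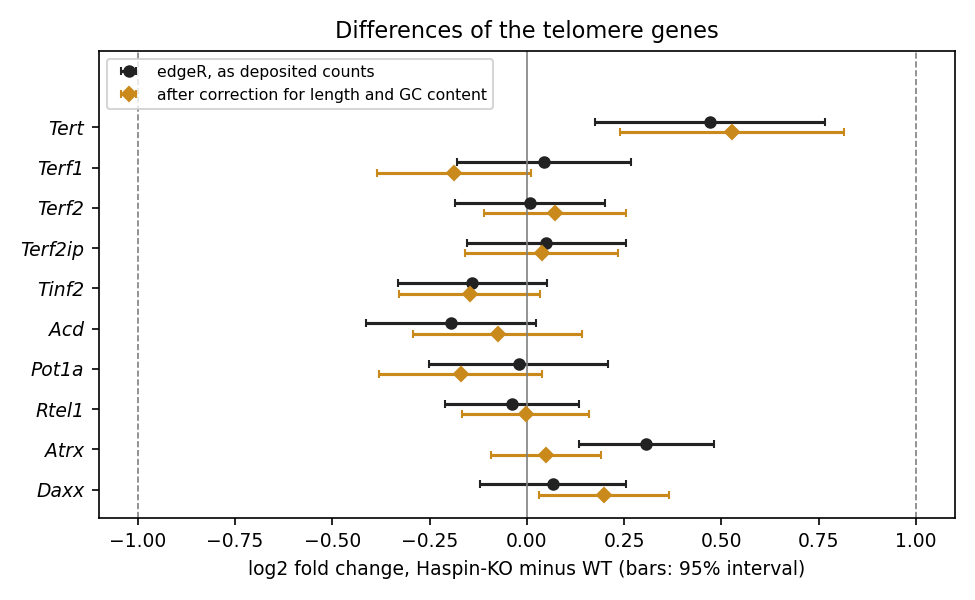
Log2 fold changes of the 10 telomere genes with 95% intervals are shown before (circles) and after (diamonds) the correction for length and GC content, and dashed lines mark a 2-fold change. Atrx moves from 0.31 to 0.049, Tert stays at 0.47 and 0.53, and no interval reaches a dashed line.

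Levels of different genes were compared by FPKM, which accounts for gene length. In WT the order of mean FPKM was Daxx 32.0, Terf1 26.8, Atrx 20.6, Rtel1 17.1, Terf2 16.6, Tinf2 12.6, Acd 10.2, Terf2ip 9.29, Pot1a 9.04 and Tert 5.32. Rtel1 and Terf2, and likewise Terf2ip and Pot1a, overlapped in their libraries and so had no order beyond their spread. The level of Daxx was 6.02 times that of Tert in WT and 4.55 times in Haspin-KO. Tert was the lowest of the 10 in both groups, at 5.13 to 5.51 FPKM in WT and 6.33 to 8.48 FPKM in Haspin-KO. In Haspin-KO, Atrx at a mean of 25.5 FPKM overlapped with Terf1 at 27.7 FPKM, whereas in WT the libraries of these genes were apart. Acd, above Terf2ip and Pot1a in WT, came after them in Haspin-KO with a mean of 8.89 FPKM, but it overlapped with Pot1a there.

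**Figure D4:**
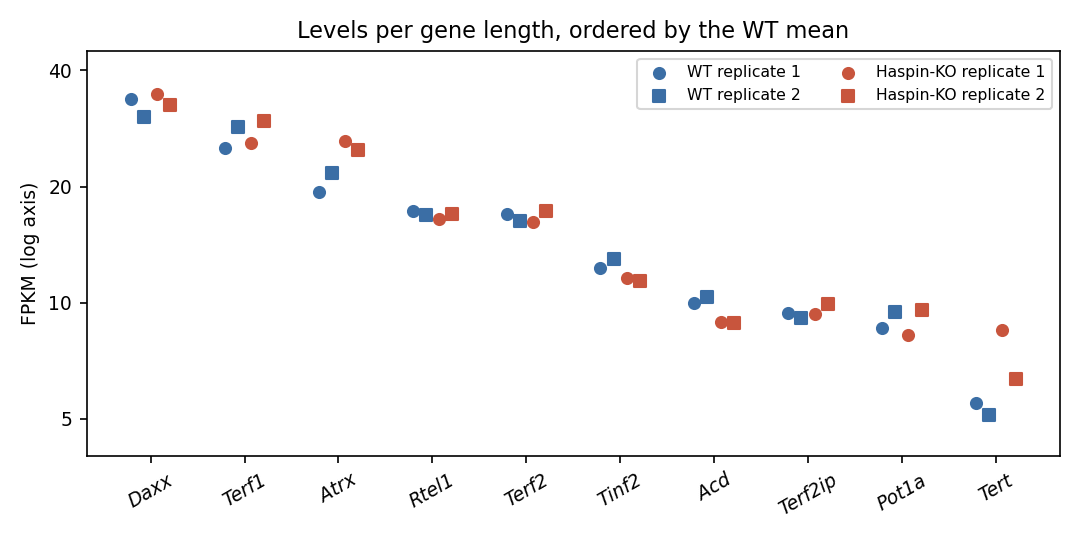
FPKM of each telomere gene in each library is shown on a log axis, with genes ordered by the mean of the 2 WT libraries. Daxx at a WT mean of 32.0 is the highest and Tert at 5.32 the lowest, and the Haspin-KO points of Tert lie at 8.48 and 6.33.

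The profile of each gene over the 4 libraries was compared with 78 telomere-related genes by the Euclidean distance between log2 CPM values centred on the gene's mean. Tinf2 and Acd were nearest to each other (distance 0.058). Terf1 lay nearest to Smg6, a gene of telomere length control and RNA decay (0.023), and Pot1a to the same gene (0.062). Terf2 was nearest to its partner Terf2ip (0.046), Terf2ip to Zcchc8 (0.042), and Rtel1 to the primase subunit Prim2 (0.040). Atrx was nearest to the damage kinase gene Atr (0.092) and Daxx to the H3.3 chaperone gene Hira (0.095). Tert had no close match, since its nearest gene, Terb2, was at 0.33 and had only 18 to 34 counts per library. With 4 libraries many genes have like profiles, and these distances are a description without a test.

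The genes that work with the 10 were described by lists of 60 tested genes, of which 0 were higher and 2 lower in Haspin-KO at an adjusted p under 0.05, against 0.988% and 1.51% of all genes. The median log2 fold change over the 60 was 0.026. Both lower genes belong to the telomerase list. Nop10, one of the H/ACA proteins that stabilise Terc, was measured at 84.9 and 78.9 CPM in WT and at 61.8 CPM in both Haspin-KO libraries. It was lower in both Haspin-KO libraries, with a log2 fold change of −0.41 (SE 0.084, edgeR adjusted p = 0.0388). Ruvbl2, an ATPase needed to assemble telomerase and several other complexes, was measured at 226.6 and 215.8 CPM in WT and at 166.8 and 174.3 CPM in Haspin-KO. Its log2 fold change was −0.38 (SE 0.072, edgeR adjusted p = 0.0317). With the correction for length and GC content, Nop10 stayed past the threshold (−0.39, edgeR adjusted p = 0.0471) and Ruvbl2 did not (−0.23, edgeR adjusted p = 0.138).

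Both calls were also lost when either WT library was left out, where calls over all genes went from 390 to 96 and 102. Nop10 then had a log2 fold change of −0.36 and −0.46 and Ruvbl2 of −0.34 and −0.41, near the values with all libraries. The adjusted p of Nop10 was 0.215 without WT replicate 1 and 0.0996 without WT replicate 2, and that of Ruvbl2 was 0.166 and 0.0919 (edgeR). Of the other 9 telomerase genes tested none was called. Among them, the H/ACA protein gene Nhp2 had a log2 fold change of −0.31 (edgeR adjusted p = 0.0640), and Dkc1, which encodes the pseudouridine synthase of the same particle, one of −0.043 (edgeR adjusted p = 0.775). Over the list 8 of 11 log2 fold changes were below 0 and 3 above, against 7890 and 7690 of all 15580 genes. Among the 3 above was the assembly factor gene Naf1 at 0.38 (edgeR adjusted p = 0.0945). Both Haspin-KO libraries lay below both WT libraries for 5 of the 11 (26.9% of all genes) and above them for 1 (25.3% of all genes). Terc has 2 entries, and both are listed with 0 counts in all 4 libraries. These entries overlap on the minus strand (chr3:96414437-96414859 and chr3:96414437-96414833). How reads shared by overlapping genes were counted is not given, so the 0 counts do not show whether Terc was expressed.

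In each of the other lists no gene passed the test. The CST complex ends telomerase extension and starts fill-in of the opposite strand. Its list also held Pot1b, the primase and polymerase subunits, Dclre1b and Exo1, 10 genes in all with a median of −0.0065. Its most abundant genes were Prim1 at −0.086 (edgeR adjusted p = 0.576) and Pola1 at 0.11 (edgeR adjusted p = 0.459), and Pot1b had 0.13 (edgeR adjusted p = 0.732). The 10 helicases and nucleases, relatives of Rtel1 in function, had a median of −0.022, with the nuclease genes Mre11a at −0.072 and Dna2 at −0.12. The 13 partners of Atrx and Daxx had a median of 0.030, with the heterochromatin co-repressor gene Trim28 at −0.071 and the H3.3 gene H3f3b at 0.17. The 6 genes of meiotic telomere attachment had a median of 0.19 and were led in abundance by Sun1 (−0.090) and Sun2 (−0.0052), which tether telomeres to the nuclear envelope. That median lay between Terb1 and Terb2, which had only 1 to 22 and 18 to 34 counts per library.

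Shelterin partners and length regulators stood a little above 0, with 9 of 10 log2 fold changes positive and a median of 0.18. Of all 15580 genes 7690 were positive, and 0 of the 10 listed genes were called. Rif1, which binds at telomeres and times replication, was measured at 512.3 and 631.7 CPM in WT and at 646.2 and 740.5 CPM in Haspin-KO (log2 fold change 0.28, edgeR adjusted p = 0.178). Tnks2, a poly-ADP-ribosyltransferase related to the enzyme that releases Terf1, had 0.15 (edgeR adjusted p = 0.287), and the damage kinase gene Atm, the list's most positive, 0.34 (edgeR adjusted p = 0.0870). Rif1 and Atm are in the lowest GC bin, as Atrx is, and the correction gave 0.074 for Rif1 and 0.18 for Atm. Atm was named after its value was seen.

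The Zscan4 copies were the telomere-related genes apart from the rest, with 8 of 9 called higher, against 0.988% of all genes, and a median log2 fold change of 1.23. Without WT replicate 1, and likewise without WT replicate 2, 4 of the 9 were called, and limma called 0 of all genes it tested. Summed over the 9 copies they reached 85.5 and 84.9 CPM in WT and 228.5 and 174.1 CPM in Haspin-KO. Haspin-KO replicate 1 was the higher of the Haspin-KO libraries, as it was for Tert. Single copies, such as Zscan4d at 1.39, share near-identical sequence and are uncertain on their own.

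**Figure D5:**
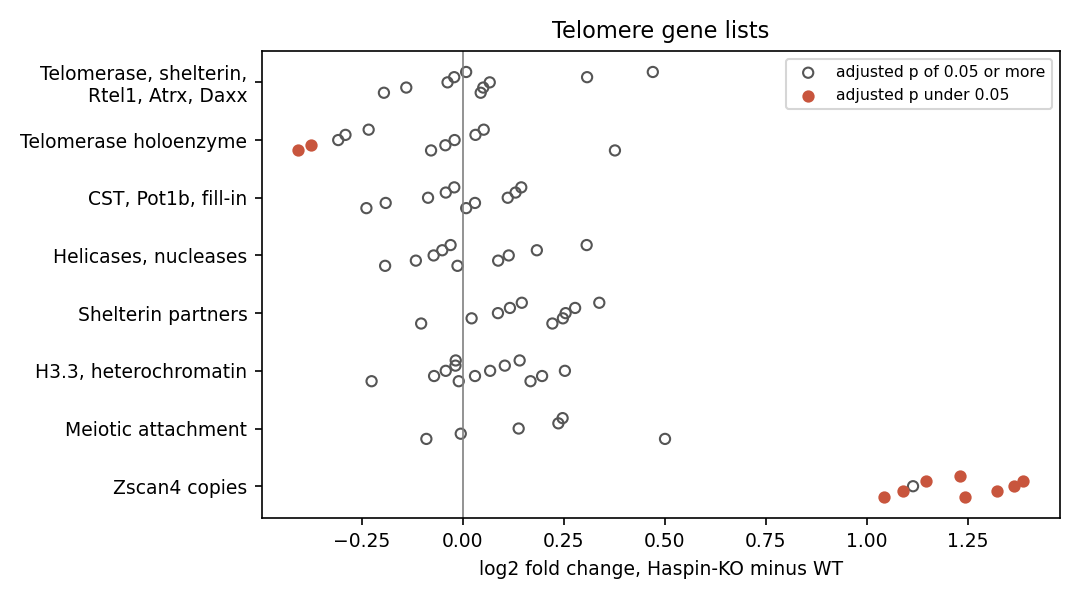
Each point is 1 tested gene at its log2 fold change of Haspin-KO minus WT, by list, and filled points have an edgeR adjusted p under 0.05. Apart from 8 filled Zscan4 copies above 1, the only filled points are Nop10 and Ruvbl2 in the telomerase list, at −0.41 and −0.38.

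The libraries held 14207828 to 21834847 counts, and 3 counts correspond to 0.137 to 0.211 CPM, far below every telomere gene of the 10. The stem cell label was met by its markers, with Pou5f1 at a mean of 466 FPKM in WT and 425 FPKM in Haspin-KO and 0 of 12 such markers called. Of 15 fibroblast markers listed, 13 were tested, and all 13 had a log2 fold change below 0. Called lower in Haspin-KO were 10 of the 13, against 1.51% of all genes. Summed levels were 28.1 to 38.1 FPKM in WT and 6.4 to 6.9 FPKM in Haspin-KO. Among the 15 markers Lum was at 0 in all libraries and Lox and Postn at 0 in Haspin-KO only. Dcn was also at 0 in Haspin-KO, but it had only 4 and 2 counts in WT and was not tested. Endoderm, mesoderm and neural markers had 0 called of 10 tested. Whether the cells behind the fibroblast markers had a part in the values of Tert, Atrx, Tinf2 or Acd was not tested, and fewer cells of a type cannot be told apart from less RNA per cell in such bulk libraries.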

How the data were processed

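Per the labels, RNA of WT and Haspin-KO E14 mESCs was made into 2 libraries per group. According to the study's methods and the submitters' processing notes, the authors used cutadapt (1.9.1) and HISAT2 (2.0.1) with mm10, and the notes also name HTSeq (0.6.1) and DESeq2. The authors deposited raw read counts per gene and FPKM, which equal counts over exonic length and library total. Strand setting and handling of multiply mapped reads are not given in the sources used here.

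Counts were tested with edgeR (4.0.16) in R (4.3.3), with filterByExpr, TMM and no block. SE is the log2 fold change over the square root of F, and intervals are 95%. A gene was called at an adjusted p under 0.05. Alternatives were DESeq2 (1.42.0), limma (3.58.1) on log2(FPKM + 0.1) for genes at 0.5 FPKM in 2 libraries or on log2(FPKM + 1), other scalings and filters, thinning, a replicate block and leaving out each library. The correction for length and GC content (loess offsets, span 0.3, 99.9% of genes with a GC value) was added after the data were seen. The edgeR fit with and without the replicate block, DESeq2 and limma on log2(FPKM + 0.1) were tried on simulated data. The correction for length and GC content, the other settings and the permutation test were not. Intervals and the floor of 3 counts cover counting and library spread only.

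The genes and lists were chosen with earlier results of these data known. Named were the 10 genes, Haspin, called list genes, the 2 most abundant genes of each list and each gene's nearest profile. Genes singled out besides these were chosen after their values were seen. Coordinates are those of the table (mm10). Exons, overlaps and GC content came from GENCODE on GRCm38. Of the listed symbols, Obfc1, Kash5 and Speedya had no entry of that name.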

Additional observations from a re-analysis of the deposited data

How the results depend on the processing

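Of the 10 telomere genes, 0 were called in the reported fit, against 390 of all 15580 genes. DESeq2 called 1 (Atrx), against 465 of 12813 genes. Without a filter on low counts 2 were called (Tert and Atrx), against 1172 of 28670 genes. The replicate numbers in the labels are shared only as numbers. The differences between replicates 1 and 2 of WT and of Haspin-KO correlated at 0.338 over 15580 genes. With the replicate block, which leaves 1 residual degree of freedom, 2 of the 10 were called, against 3514 of all 15580 genes. These were Tert at 0.47 (edgeR adjusted p = 5.5e-06) and Atrx at 0.31 (edgeR adjusted p = 1.0e-05). The block and the correction for length and GC content together called 3 of the 10 (Tert, Terf1 and Daxx), against 2353 of all 15580 genes. The fold threshold of 2 was passed by none of the 10 in any setting. Other listed telomere genes called, Zscan4 copies included, numbered 10 in the reported fit, 27 with the replicate block, 0 with limma on log2(FPKM + 0.1) and 4 to 13 without single libraries. Over all genes the calls numbered 390, against 0 with limma on log2(FPKM + 0.1) (smallest adjusted p 0.0697, with 2736 genes at an unadjusted p under 0.05), 1172 without a filter, 3514 with the replicate block, 249 with the correction, 2353 with both, and 96 to 878 without single libraries.

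The sign turned for Terf2 without a filter (−0.020) and for Terf1 with the correction, alone or with the block (−0.19 in both). Without single libraries Terf1 ran from −0.076 to 0.15, Terf2 from −0.064 to 0.076, Terf2ip from −0.014 to 0.11, Pot1a from −0.15 to 0.097, Rtel1 from −0.080 to 0.0018 and Daxx from −0.0030 to 0.14, and the log2 difference of the Terf1 to Terf2 ratio from −0.088 to 0.16. Tert, Atrx, Tinf2 and Acd kept their direction in all 15 alternatives. The cause of these changes was not tested. With 2 libraries per group, differences of the size seen for Tinf2 and Acd were not resolved from 0.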
